A study of Arabidopsis thaliana with 4 samples.

Results

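AT1G26240 and AT1G26250 are a pair of extensin genes that follow each other on chromosome 1 of Arabidopsis, with 0 annotated genes between them. They were taken from the probe annotation of the ATH1 array as the probe sets (groups of short probes that together read 1 transcript) of these 2 genes, out of 13333 genes that have a probe set naming 1 gene. Each gene has 1 such probe set, and neither probe set carries the suffix that marks possible cross-hybridization. Both genes were chosen by their measured ratios on these same arrays, where their signals were higher beside the fungus, so the ratios of exposed over mock-treated roots stand here as a description and not as a test.

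Wild-type Columbia seedlings were grown beside an agar plug with mycelium of the root-colonizing fungus P. indica (exposed) or beside a plug without hyphae (mock), and their root RNA was read on ATH1 arrays. The groups were P. indica-exposed roots at 6 d, mock-treated roots at 6 d, P. indica-exposed roots at 2 d and mock-treated roots at 2 d, with 1 array each. By the labels the seedlings were 16 d old on the 6 d arrays and 12 d old on those of 2 d, and no agent other than the plug is named. In the study's methods the partners had no physical contact at the early time point and had contact at the late one, while the labels' free description names embryos, which is at odds with the tissue given as root. The methods speak of 3 independent experiments, but no source used here says whether these were combined into the arrays. Since every condition has a single array, no value has a replicate error and no p-value is given.

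Extensins are hydroxyproline-rich glycoproteins of the plant cell wall. Their backbone repeats a serine followed by prolines, prolyl 4-hydroxylases convert these prolines to hydroxyproline, glycosyltransferases add short arabinose chains, and peroxidases of the wall couple tyrosines of neighbouring molecules into a network. In Arabidopsis many extensins are known from roots and root hairs, and wall cross-linking is a known part of the response to microbes.

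AT1G26240 had a signal of 131.9 in exposed roots and 43.5 in mock-treated roots at 6 d, in the linear MAS5 units of the array software. At 2 d its signal was 73.2 in exposed roots and 10.1 in mock-treated roots. Exposed roots were thus higher at both time points, and the exposed array with the lower signal still lay above both mock arrays. The mock signal at 2 d was under a floor of 22.2, set at the mean 40th percentile of the 4 arrays, below which signals were not read as levels. The ratio of exposed over mock was therefore 3.03-fold at 6 d, with both arrays above the floor, and at least 3.30-fold at 2 d, which is a lower bound.

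AT1G26250 had a signal of 284 in exposed roots and 116.4 in mock-treated roots at 6 d. At 2 d its signal was 243.3 in exposed roots and 119.5 in mock-treated roots. All 4 arrays lay well above the floor, and the 2 mock arrays were close to each other, so no value of this gene is a bound. The ratio was 2.44-fold at 6 d and 2.04-fold at 2 d. In bulk root RNA a change in RNA per cell cannot be told apart from a change in the share of cells that express a gene.

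**Figure D1:**
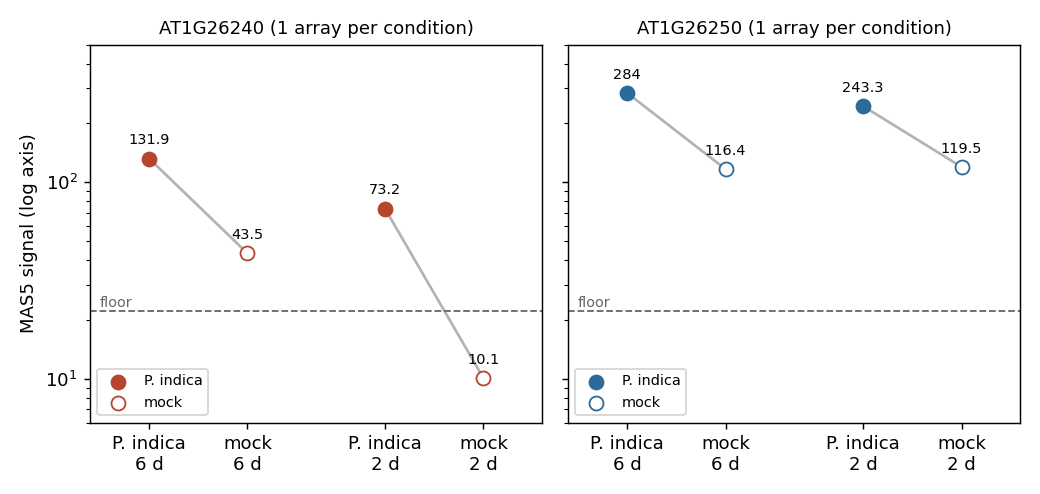
MAS5 signals (log axis) of AT1G26240 and AT1G26250 on the 4 arrays, 1 point per array, with P. indica-exposed roots as filled and mock-treated roots as open circles and the floor of 22.2 as a dashed line. The exposed array is the higher one in each of the 4 pairs, and only the 2 d mock signal of AT1G26240, 10.1, lies under the floor.

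Both genes were more than 2-fold higher at 6 d, where 0.456% of the 14029 probe sets counted passed this limit, and both at 2 d, where 0.737% of 14118 did. Probe sets were counted where the brighter of both arrays exceeded the floor. Of the probe sets counted at both times, 0.318% (43 of 13538) were more than 2-fold higher at each. AT1G26240 alone of the pair passed 3-fold, the limit used in the study, at 6 d (background 0.107%) and at 2 d (background 0.29%). When 32 was added to the signals and no floor was used, AT1G26240 came to 2.17-fold at 6 d and 2.50-fold at 2 d and so under 3-fold at both times, and AT1G26250 came to 2.13-fold at 6 d and 1.82-fold at 2 d and so under 2-fold at 2 d. In the order of floored ratios at 6 d AT1G26240 stood at place 15 and AT1G26250 at place 31 of 14029, which restates the values by which the pair was chosen.

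On the log2 scale the ratio of AT1G26240 was 1.60 at 6 d and at least 1.72 at 2 d, and that of AT1G26250 was 1.29 at 6 d and 1.03 at 2 d. AT1G26250 was thus 0.26 higher at the later time point in its log2 ratio, and this sign did not turn under any of the 7 alternatives run for it. All signals of AT1G26250 lie above every floor among these alternatives, so the changes of floor could not alter the value. For AT1G26240 the order of the time points depends on how the low mock signal at 2 d is read. With signals used as they were deposited the 2 d ratio was 7.25-fold, and the log2 ratio was lower by 1.26 at 6 d than at 2 d. For a floor at the 45th percentile (29.8) the 2 d ratio was at least 2.46-fold, under the 3.03-fold at 6 d, and a floor at the 60th percentile (61.4) gave bounds of 2.15-fold at 6 d and 1.19-fold at 2 d. The 6 d ratio of AT1G26240 stayed at 3.03-fold for all floors tried from the 5th to the 50th percentile. The floors in steps of 5 percentiles were added after the values were seen.

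**Figure D2:**
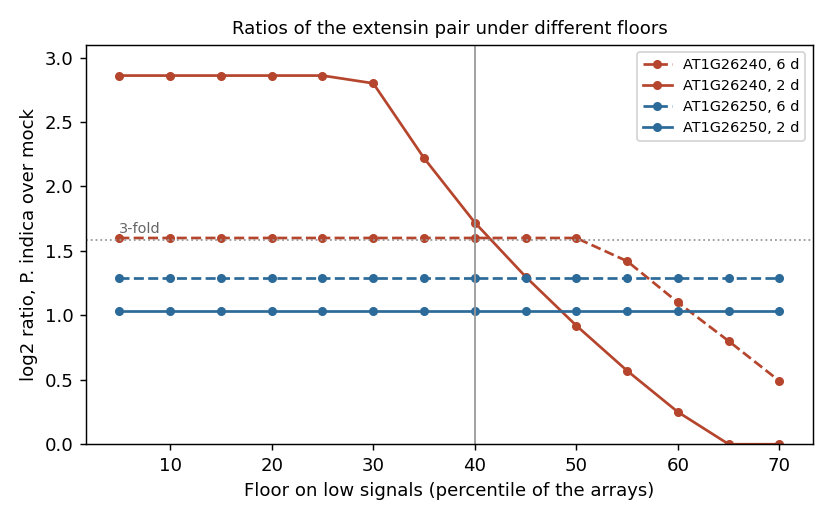
Log2 ratio of P. indica-exposed over mock-treated roots for AT1G26240 and AT1G26250 at 6 d (dashed) and 2 d (solid), against the percentile at which the floor on low signals was set, with the floor used here at the vertical line. The lines of AT1G26250 are flat at 1.29 and 1.03, while the 2 d line of AT1G26240 drops to 1.72 at the 40th and 0.25 at the 60th percentile and crosses its 6 d line between the 40th and the 45th.

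The difference between the log2 ratios of the genes, AT1G26240 minus AT1G26250, was 0.31 at 6 d and at least 0.70 at 2 d. With 32 added this difference was 0.03 at 6 d and 0.46 at 2 d. Its sign turned where the floor was raised to the 60th percentile, which makes both ratios of AT1G26240 bounds, to -0.18 at 6 d and -0.77 at 2 d. The difference in signal between exposed and mock-treated roots was 88.4 for AT1G26240 and 167.6 for AT1G26250 at 6 d, and 63.1 and 123.8 in the same order of genes at 2 d. For each gene the difference in signal was larger at 6 d than at 2 d. The hybridization controls, described below, were also brighter on the 6 d arrays, by a median log2 of 0.59 (exposed) and 0.54 (mock). The differences in signal were not corrected for this, so their order over time is not settled. Signals of different probe sets are not on a common scale, so these differences do not rank the genes by transcript amount.

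The levels within each condition could also be set side by side over time. AT1G26240 in exposed roots was 1.80-fold higher at 6 d than at 2 d, and in mock-treated roots at least 1.96-fold higher, or 4.31-fold with signals as deposited. AT1G26250 in exposed roots was 1.17-fold higher at 6 d than at 2 d, and in mock-treated roots its log2 difference was -0.04. With the floor AT1G26250 did not pass 2-fold over time, and neither did AT1G26240 in exposed roots. Whether AT1G26240 passed it in mock-treated roots is not settled by a lower bound of 1.96-fold. Of the probe sets counted, 2.02% were more than 2-fold higher at 6 d in exposed and 1.12% in mock-treated roots. Signals of 18 of 18 hybridization controls, which are added to each array in fixed amounts, were also brighter at 6 d, by a median log2 difference of 0.59 between the exposed and 0.54 between the mock arrays. Less these medians, the log2 differences were 0.26 in exposed and at least 0.43 in mock-treated roots for AT1G26240, and -0.37 and -0.58 for AT1G26250, so the direction of AT1G26250 in exposed roots turned. Within a time point the controls differed by a median of 0.10 at 6 d and 0.07 at 2 d, which is small beside the ratios of the pair.

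Of 18 other classical extensins 10 have a probe set naming 1 gene, and 6 of these were counted, the other 4 lying under the floor on all 4 arrays. At 6 d 3 of the 6 had a log2 ratio above 0 and 3 below, from -0.10 to 0.25 with a median of 0.06, beside 46.8% of all probe sets above 0 and a median of -0.02 over all. At 2 d 6 of 6 had a ratio above 0, from 0.37 to 0.99 with a median of 0.52, beside 44.1% of all probe sets above 0 and a median of -0.03 over all. None of the 6 passed 2-fold at either time point, which few of all probe sets did (0.456% at 6 d and 0.737% at 2 d). At both times each lay below both genes of the pair, though at 2 d AT4G08410 at 0.99 was close to AT1G26250 at 1.03. For these 6 the order held in 7 of 7 alternatives at 6 d and in 6 of 7 at 2 d, where a floor at the 60th percentile put AT1G26240 at 0.25. Without a floor an extensin too dim to be among the 6 reached 1.56 at 6 d and 2.49 at 2 d, above AT1G26250 at both times. With such dim extensins included, the pair stood above all others in 6 of 7 alternatives at 6 d and in 5 of 7 at 2 d. With quantile normalization, loess or centring the highest of the 6 stood between 1.02 and 1.04 at 2 d and so just past 2-fold. AT4G08410 came closest, with 90.9 in exposed and 77.2 in mock-treated roots at 6 d, and 122.9 in exposed and 61.9 in mock-treated roots at 2 d. AT5G06630 had signals of 201.6 in exposed and 215.5 in mock-treated roots at 6 d, and of 251.3 and 159.8 in exposed and mock-treated roots at 2 d. In both of these genes the exposed and mock signals were close at 6 d and further apart at 2 d. With the floor used here AT1G26240 and AT1G26250 were more than 2-fold higher at each time. With 32 added AT1G26250 was under 2-fold at 2 d. For AT1G26240 the bound fell under 2-fold at 2 d from a floor at the 50th percentile (1.89-fold), and at 6 d from the 65th (1.74-fold). The log2 ratio of HRGP1 (AT3G54590) was -0.01 at 6 d, above 0 with centring, and 0.62 at 2 d, and that of AT3G28550 -0.07 at 6 d and 0.42 at 2 d.

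The probe sets of 4 of these 6 extensins, including AT4G08410, AT5G06630 and HRGP1, carry a suffix for probes shared with related genes, so they are not independent readings. The 2 without it are AT3G28550 and AT3G54580. AT3G54580, named after its values were seen, had ratios of 0.25 at 6 d and 0.37 at 2 d on the log2 scale. Their joint median was 0.09 at 6 d and 0.40 at 2 d. The difference between the pair and the other extensins was not tested, since there is 1 array per condition and the pair was chosen for high ratios.

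Leucine-rich repeat extensins, which join an extensin domain to a receptor-like part that binds wall signals, were mostly at low signal: 8 of 11 have a probe set, and 5 of these 8 lay under the floor on all arrays. LRX6 (AT3G22800) had 51.7 in exposed and 31.5 in mock-treated roots at 6 d, and 109.2 in exposed and 88.5 in mock-treated roots at 2 d. Its log2 ratio of 0.71 at 6 d was the highest of the 3 counted. LRX4 (AT3G24480) stood at 0.23 at 6 d and 0.31 at 2 d, and LRX5 (AT4G18670) at -0.02 at 6 d. No counted member passed 2-fold, which few of all probe sets did (0.456% at 6 d and 0.737% at 2 d). A floor at the 60th percentile set LRX6 at 6 d and LRX4 at both times to 0. The 15 listed PERK receptor kinases, which carry an extensin-like outer domain, and 4 proline-rich wall proteins could not be followed, since no probe set names 1 of them alone.

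Enzymes that modify extensins were followed as prolyl 4-hydroxylases, glycosyltransferases and peroxidases. None of those counted passed 2-fold, which few probe sets did (0.456% at 6 d and 0.737% at 2 d). Of 12 prolyl 4-hydroxylases 8 have a probe set naming 1 gene, and 5 of these were counted. Their median was -0.13 at 6 d and -0.08 at 2 d on the log2 scale. The largest differences were 0.29 for AT4G33910 and -0.23 for AT5G18900 at 6 d, and 0.21 for AT3G28480 and -0.21 for AT1G20270 at 2 d. Of 9 glycosyltransferases that act on extensin 4 have a probe set naming 1 gene, and all of these were counted. All 4 lay below 0 at 6 d, from -0.28 to -0.03, and above 0 at 2 d, from 0.01 to 0.23, beside 46.8% of all probe sets above 0 at 6 d and 44.1% at 2 d. XEG113 (AT2G35610), an arabinosyltransferase that extends the chain, had 176.4 in exposed and 214.3 in mock-treated roots at 6 d, and 310.7 in exposed and 273.3 in mock-treated roots at 2 d. ExAD (AT3G57630), which adds a later arabinose, stood at -0.03 at 6 d and 0.23 at 2 d on the log2 scale, a value that came to 0 at 6 d with loess. The serine galactosyltransferase gene AT3G01720 stood at -0.14 at 6 d and 0.21 at 2 d, and HPAT3 (AT5G13500), which adds the first arabinose, at -0.08 at 6 d and 0.01 at 2 d.

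Of 7 class III peroxidases known to be linked to extensin, 3 have a probe set naming 1 gene, and all 3 were counted. These 3 lay below 0 at 6 d and above 0 at 2 d, except that a floor at the 60th percentile set PRX40 to 0. Of all probe sets counted, 46.8% were above 0 at 6 d and 44.1% at 2 d. PRX44 (AT4G26010), known from root hairs, had signals of 789.9 in exposed and 830 in mock-treated roots at 6 d, and of 1381.6 in exposed and 992.8 in mock-treated roots at 2 d. The log2 ratio of PRX9 (AT1G44970) was -0.12 at 6 d and 0.51 at 2 d, and that of PRX40 (AT4G16270) -0.21 at 6 d and 0.46 at 2 d.

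**Figure D3:**
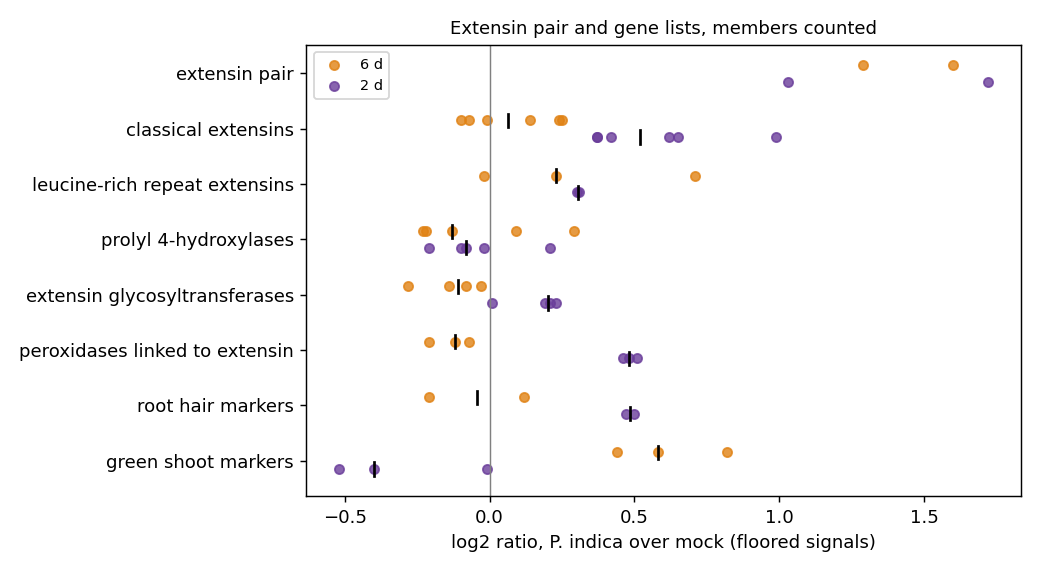
Log2 ratios of P. indica-exposed over mock-treated roots at 6 d (orange, upper row) and 2 d (purple, lower row) for AT1G26240 and AT1G26250 and for the counted members of 7 gene lists, 1 point per gene, with the median of each list as a black bar. The 4 points of the pair lie between 1.03 and 1.72, to the right of every list member, and the other classical extensins lie between -0.10 and 0.25 at 6 d and between 0.37 and 0.99 at 2 d.

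Markers of root and shoot cells moved as follows beside these results. Of 9 root hair markers only 2 have a probe set naming 1 gene, and both were counted. These expansin genes, EXPA7 (AT1G12560) and EXPA18 (AT1G62980), had log2 ratios of 0.12 and -0.21 at 6 d and 0.47 and 0.50 at 2 d. The sum of their signals came to 361 in exposed and 379.5 in mock-treated roots at 6 d, and to 609.3 in exposed and 435.1 in mock-treated roots at 2 d. Of 8 root markers only 2 have a probe set naming 1 gene, EXPA7 and the root beta-glucosidase PYK10 (AT3G09260), which marks root tissue. PYK10 had high signals between 3098.4 and 4468.1 on all 4 arrays, its log2 ratio being 0.21 at 6 d and 0.19 at 2 d. Of 8 markers of green shoot tissue 3 were counted, with a summed signal of 739.2 in exposed and 509.6 in mock-treated roots at 6 d, and 293.5 in exposed and 402.8 in mock-treated roots at 2 d. At 6 d each of the 3 had its higher signal beside the fungus. Of all probe sets counted, 46.8% had a log2 ratio above 0 at 6 d and 44.1% at 2 d. At 2 d RCA (AT2G39730) and LHCB4.1 (AT5G01530) were lower, at -0.40 and -0.52. PRK (AT1G32060), at the floor, stood at -0.01, turned to 0.03 with centring and was -0.45 without a floor. The green markers' log2 ratios at 6 d lay between 0.44 and 0.82. The part of root hairs or of green tissue in the ratios of the pair was not tested.

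The genes around the pair on the chromosome were looked at to see whether the difference reached further. Of 20 genes annotated within 10 places on either side, 8 have a probe set naming 1 gene, and 2 of these were counted. AT1G26270, 3 places beyond AT1G26250, had 312.7 in exposed and 256.2 in mock-treated roots at 6 d, and 204.9 in exposed and 202.6 in mock-treated roots at 2 d. AT1G26300, 4 places beyond, had 72.1 in exposed and 96 in mock-treated roots at 6 d, and 91.3 in exposed and 92.4 in mock-treated roots at 2 d. Their log2 ratios lay between -0.41 and 0.29, well below those of AT1G26240 and AT1G26250. The remaining 6, among them the only 2 with such a probe set on the AT1G26240 side, AT1G26220 and the chaperonin gene Cpn60beta4 (AT1G26230), were under the floor on all arrays. In the TAIR10.1 annotation, 1 further gene, AT1G26255, overlaps AT1G26250 and has no probe set of its own here, and which of the overlapping transcripts the probes of AT1G26250 bind was not tested.

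To find the genes whose signals ran most like those of each extensin gene, the log2 signals of each probe set, set to the floor where lower, were centred on their mean over the 4 arrays, and the distance between profiles was taken over these 4 values, among 7505 other genes above the floor on at least 2 arrays. Closest to AT1G26240 was AT1G26410, a gene of the berberine bridge enzyme-like oxidases, at a distance of 0.20 on the log2 scale. Its signals were 114.2 in exposed and 43.8 in mock-treated roots at 6 d, and 75.3 in exposed and 5.1 in mock-treated roots at 2 d. The 2 d mock signals of AT1G26410 and AT1G26240, 5.1 and 10.1, were both set to the floor, so the distance of 0.20 rests in part on it. AT1G26410 thus shares with AT1G26240 a 2 d mock signal under the floor and a mock signal above the floor at 6 d, as do AT4G28460 and AT3G60270 below. Since these genes were picked by the closeness of their floored profiles, this sharing follows in part from how they were picked. The transferase gene AT5G42830 followed at 0.46, AT3G18250 and AT4G28460, which codes for a precursor of a secreted immune peptide, at 0.51 each, and the cupredoxin gene AT3G60270 at 0.70. AT1G26250 itself stood at place 19 of this order, with a distance of 0.98.

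Closest to AT1G26250 were AT3G28510 and AT1G10340, both at a distance of 0.17, followed by the peroxidase gene AT3G03670 at 0.18, the berberine bridge enzyme-like gene AT1G26420 at 0.20 and AT2G39400 at 0.25. These genes had signals between 41.8 and 61.3 in exposed roots, and 4 of the 5 lay under the floor in mock-treated roots at both time points, so their profiles are in part set by the floor. AT3G28510 had signals of 61.3 in exposed and 20 in mock-treated roots at 6 d, and of 49.8 in exposed and 2.1 in mock-treated roots at 2 d. AT1G26240 stood at place 597 in this order. The place of one gene of the pair in the order of the other rests in part on the floor, which stands in for the 2 d mock signal of AT1G26240. With 4 arrays and 1 per condition these distances describe the arrays and carry no error.

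**Figure D4:**
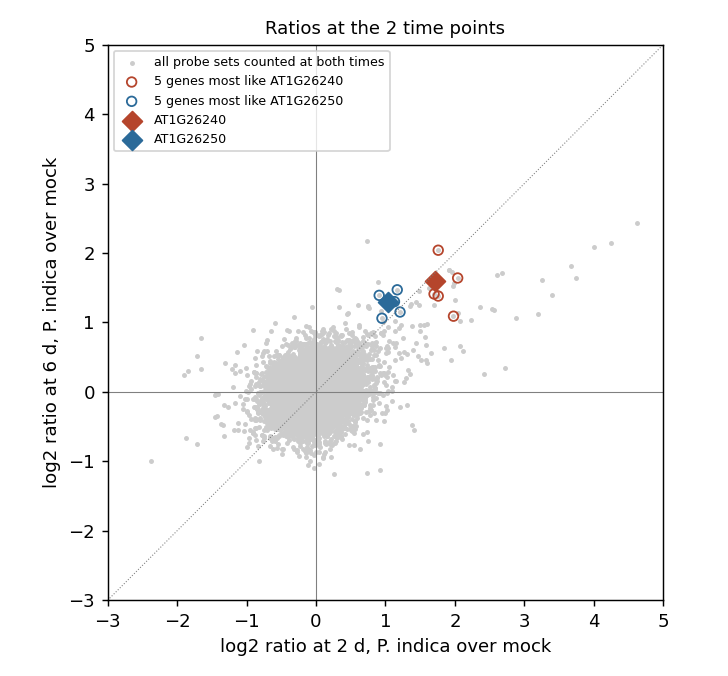
Log2 ratio of P. indica-exposed over mock-treated roots at 6 d (vertical) against that at 2 d (horizontal) for 13538 probe sets counted at both times (grey), with AT1G26240 and AT1G26250 as diamonds and the 5 genes with the most similar profile to each as open circles. The diamonds lie at 1.72 and 1.60 and at 1.03 and 1.29, on opposite sides of the dotted line of equal ratios.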

How the data were processed

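The authors hybridized root RNA to Affymetrix ATH1 arrays and deposited MAS5 signals, which are linear intensities, for 22810 probe sets on 4 arrays. No source used here gives the MAS5 version or the normalization applied in ROBIN for the paper. The trimmed means of the arrays lay between 99.2 and 99.3, so the deposited values appear to have been scaled to a common mean, and they were used on that scale. After 64 control probe sets were left out, 22746 remained. Signals under the floor were set to it, log2 ratios were formed within a time point, and between 59.8% and 60.3% of probe sets lay above the floor on each array. The number of arrays limits the precision, and no test was made. The t-test with false discovery rate named in the methods needs replicates.

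Probe sets were named through the platform annotation, updated by Entrez identifiers to TAIR10.1: 13484 name 1 gene with its locus, 503 several and 8730 none. Of several probe sets of a gene, the one with the highest mean signal was used. No coordinates are printed, since the build behind the probe annotation is not given. The members and lists were chosen with earlier results of these data known. The text names list members past 2-fold or otherwise up to 4 with the largest ratios, counted neighbours within 10 genes and the 5 most similar profiles. The counting was tested on simulated data. As alternatives, the floor was set at the 20th or the 60th percentile or left out, and others were 32 added to each signal, quantile normalization, loess (span 0.3), centring on the median, limits of 2-fold and 4-fold, a shift by the hybridization controls, and extensin probe sets without a cross-hybridization suffix. Values were computed with pandas 2.3.3 and numpy 2.4.6 in Python 3.11.15, the loess with statsmodels 0.14.6, trimmed means with scipy 1.17.1 and figures with matplotlib 3.10.9.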

Additional observations from a re-analysis of the deposited data

How the results depend on the processing

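With no replicates, a log2 value was taken to have moved if it differed by more than 0.58 (1.5-fold). The ratios of AT1G26250 moved in 0 of 14 alternatives and those of AT1G26240 in 3 of 14, all for the ratio at 2 d, and all 28 stayed above 0. With 32 added, though, AT1G26240 was under 3-fold at both times and AT1G26250 under 2-fold at 2 d. The 2 d log2 ratio of AT1G26240 was 2.86 both without a floor and with one at the 20th percentile, and 0.25 with one at the 60th. Its difference between the time points (6 d minus 2 d) was then -1.26, -1.26 and 0.85, against -0.12. The mock signal of AT1G26240 at 2 d, 10.1, lies under the floor used, and a floor at the 60th percentile also lies above its 6 d mock signal of 43.5 and lowers the 6 d ratio to 2.15-fold, a bound. In mock-treated roots its log2 difference between 6 d and 2 d was 2.11 both without a floor and with one at the 20th percentile, and 0.00 with one at the 60th. With the medians of the hybridization controls taken off, its difference in exposed roots was 0.26, and that of AT1G26250 turned to -0.37. The medians of the other classical extensins lay between 0.06 and 0.18 at 6 d and between 0.40 and 0.56 at 2 d. They moved in 0 of 16 alternatives. Both main medians, 0.06 and 0.52, are under the limit of 0.58, so a fall to 0 would not have counted as moved.

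The counts of probe sets more than 3-fold higher, main value first, were 15 at 6 d and 41 at 2 d. They were 58 and 95 for a floor at the 20th percentile, 8 and 20 with one at the 60th, 1239 and 1110 without a floor, 3 and 21 with 32 added, 64 and 104 with a limit of 2-fold, and 5 and 22 with one of 4-fold. For lower signals the counts were 0 at 6 d and 8 at 2 d, then 19 and 27 for a floor at the 20th percentile, 1027 and 798 without a floor, and 6 and 40 at 2-fold. At 2 d they were 3 for a floor at the 60th percentile, 1 with 32 added and 1 at 4-fold. Without a floor, probe sets with a signal of 0 were left out. Neither gene has another probe set naming it alone, so that alternative gave no value. No paired analysis was possible because each condition has 1 array and so no replicate numbers to pair, and a fit taking the time points as blocks was not run, since the pair was chosen by these ratios.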

Other observations

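The berberine bridge enzyme-like gene AT1G26410, whose profile is closest to that of AT1G26240, and AT1G26420, which is among those closest to AT1G26250, belong to a gene cluster that begins on the same side as AT1G26250, after 13 further annotated genes. This was seen after the values were known. AT1G26390 of this cluster had signals of 410.4 in exposed and 92.7 in mock-treated roots at 6 d, and of 423.9 in exposed and 13.5 in mock-treated roots at 2 d. AT1G26380 had 380.1 in exposed and 122.3 in mock-treated roots at 6 d, and 297.9 in exposed and 15.4 in mock-treated roots at 2 d. In these and in AT1G26410 the 2 d mock signal lay under the floor and the 6 d mock signal above it, as for AT1G26240. The same held outside this cluster for AT4G28460 and AT3G60270, which are also among the 5 genes most like AT1G26240. These genes and AT1G26410 were picked by the closeness of their floored profiles to AT1G26240, so for them this trait follows in part from that choice. The share of all probe sets with this trait was not counted. AT1G26420 had 49.4 in exposed and 21.4 in mock-treated roots at 6 d, and 51.5 in exposed and 6.9 in mock-treated roots at 2 d, so that both of its mock signals lay under the floor. AT1G26400, which lies between AT1G26390 and AT1G26410, was under the floor on all 4 arrays. AT1G26250, next to AT1G26240, had mock signals of 116.4 at 6 d and 119.5 at 2 d. No relation between position and signal was tested.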
